A study of Mus musculus with 18 samples.

Results

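The Ly49 receptors of mouse natural killer (NK) cells and group 1 innate lymphoid cells (ILC1) were followed as a family through bulk RNA-seq of sorted liver lymphocytes. The family was taken as the 9 genes with the symbols Klra1, Klra3, Klra4, Klra5, Klra6, Klra7, Klra8, Klra9 and Klra10, out of 54309 genes in the count table. All 9 passed the filter on low counts that left 13594 genes for testing. The mice were C57BL/6J females with no engineered allele, aged 8 to 10 weeks when MC38 cells, a colon adenocarcinoma line of the same strain, were injected into the spleen. Livers were taken at day 20, and 4 populations of lin- CD45+ NKp46+ cells were sorted, with 3 libraries each. MFL NK cells (CD49a- CD49b+) and MFL ILC1 (CD49a+ CD49b-) came from metastasis-free liver. From the liver metastases of such mice came LM CD49a- NK cells, which were CD49b+, and the double-positive LM CD49a+ NK cells (CD49a+ CD49b+). The last libraries are titled as ILC1, and their group was taken from the cell type label. Each library was made from a pool of 6 to 8 MFL or LM samples, so p-values measure the spread between pools. Metastases were digested with enzymes while metastasis-free liver was smashed and filtered, so site and dissociation cannot be told apart.

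Ly49 receptors are C-type lectin-like receptors on the surface of mouse NK cells. Most bind MHC class I and carry an inhibitory tyrosine motif in the cytoplasmic tail, which recruits the phosphatase SHP-1 (Ptpn6) and restrains the cell. In C57BL/6 mice Ly49D (Klra4) and Ly49H (Klra8) lack that motif, pair with the adaptor DAP12 (Tyrobp) and activate the cell instead, and Ly49H is known for recognizing a protein of mouse cytomegalovirus. Each NK cell switches on its own subset of the genes, so the level in a sorted population mixes how many cells use a gene with how much RNA each makes. Fewer cells of a type and less RNA per cell cannot be told apart in these libraries.

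The division into inhibitory and activating members can be read from the start of the coding sequence. The first 36 coding bases of the canonical transcripts (GENCODE vM39, GRCm39) are shown because the codon in capitals, codon 8 counted from the start codon, encodes the tyrosine of the inhibitory motif.
Klra4: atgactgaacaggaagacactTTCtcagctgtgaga
Klra8: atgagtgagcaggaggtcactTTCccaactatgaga
Klra7: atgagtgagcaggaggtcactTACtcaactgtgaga
Klra9: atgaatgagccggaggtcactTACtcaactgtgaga
Klra1: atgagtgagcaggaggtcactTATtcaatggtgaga
Klra3: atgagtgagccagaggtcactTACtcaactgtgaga
Klra10: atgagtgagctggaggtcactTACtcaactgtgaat
Klra6: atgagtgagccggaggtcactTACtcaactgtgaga
Klra5: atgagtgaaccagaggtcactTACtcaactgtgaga
Klra4 and Klra8 have the phenylalanine codon TTC at this position. The other members have a tyrosine codon, TAT in Klra1 and TAC in the rest.

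The 9 genes lie in 1 cluster, with 3 Klra pseudogenes among them, on the minus strand of chromosome 6 and resemble each other closely, which limits how surely a read can be given to one of them. From Klra5 (chr6:129875959-129894613, GRCm39) to Klra1 (chr6:130340880-130363837) the order is Klra5, Klra6, Klra4, Klra8, Klra9, Klra7, Klra10, Klra3 and Klra1. Over the 36 pairs, the identity of the coding sequences ranged from 75.7% (Klra4 with Klra10) to 96.9% (Klra9 with Klra10). The authors assigned reads with an index of 31-base words, so the share of such words found in the transcripts of no other gene was counted. The count used the transcripts of GENCODE vM39, whereas the authors' index was built on GENCODE M27. This share was 89.8% for Klra1, 88.6% for Klra5, 85.5% for Klra6, 81.1% for Klra7 and 75.0% for Klra4. It was lower for Klra3 (61.2%), Klra8 (56.7%), Klra10 (43.0%) and Klra9 (37.1%). Klra9 shared most with Klra10, which held 33.7% of the words of Klra9. Levels of these last members are therefore less certain one by one, and the sum of the family is given beside them.

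**Figure D1:**
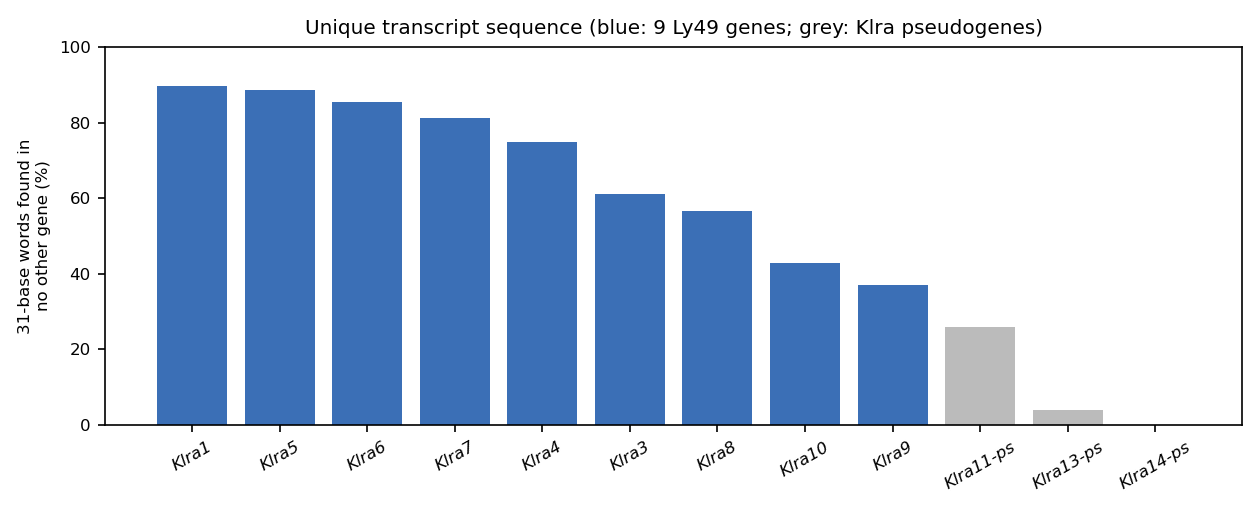
Bars give, for each Ly49 gene (blue) and 3 Klra pseudogenes (grey), the percentage of the 31-base words of its GENCODE vM39 transcripts that occur in no other gene. Klra1 stands highest at 89.8% and Klra9 lowest of the 9 genes at 37.1%, and Klra14-ps has no word of its own.

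Total counts per library ranged from 8795721 to 14386834. Levels are given as CPM, counts scaled by TMM and given per 1000000 counts of the tested genes. The sorted cells carried the markers of their labels. Summed over Eomes, Itga2, Itgam, S1pr5 and Klrg1, NK markers ranged from 2028 to 2524 CPM in the 6 MFL NK and LM CD49a- NK libraries, from 736 to 1465 CPM in LM CD49a+ NK cells and from 80.4 to 140 CPM in MFL ILC1. ILC1 markers (Itga1, Tnfsf10, Cxcr6, Il7r and Zfp683) went the other way, with at most 68.5 CPM in the first 6 libraries, 179 to 266 CPM in LM CD49a+ NK cells and 1557 to 1573 CPM in MFL ILC1. Itga1 and Itga2 encode CD49a and CD49b, on which the cells were sorted. In LM CD49a+ NK cells the ILC1 sum was mostly Itga1 (156, 143 and 105 CPM) and Tnfsf10 (53.7, 105 and 55.0 CPM). Cxcr6 (0, 5.55 and 4.09 CPM) and Zfp683 (8.81, 0.391 and 0.797 CPM) were near 0 there. Il7r (36.2, 12.4 and 14.3 CPM) overlapped LM CD49a- NK cells (19.4, 22.8 and 8.59 CPM). T cell transcripts (Cd3d, Cd3e, Cd3g, Cd4, Cd8a and Cd8b1) summed to 238 to 680 CPM in MFL ILC1, with none of the 6 at 0 throughout, and to at most 35.7 CPM elsewhere. Nearly all of this was Cd3g, at 224, 522 and 668 CPM in MFL ILC1. Cd3d (0, 1.98 and 4.83 CPM) and Cd3e (0, 0.366 and 0 CPM) were near 0 there and reached 16.4 and 2.97 CPM in LM CD49a+ NK replicate 2. Hepatocyte transcripts, 4 genes, summed to 17.5 to 88.0 CPM in MFL NK cells and 28.8 to 66.6 CPM in MFL ILC1, but to at most 0.158 CPM in LM CD49a- NK and 13.1 CPM in LM CD49a+ NK cells. Erythroid transcripts, 3 genes, summed to 118 to 360 CPM in MFL NK, 61.2 to 321 CPM in LM CD49a- NK, 29.8 to 150 CPM in LM CD49a+ NK cells and 57.8 to 458 CPM in MFL ILC1. The part of these transcripts in the results below was not tested.

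The family as a whole was highest in MFL NK cells and lowest in MFL ILC1, with LM CD49a+ NK cells between. The 9 genes summed to 1889, 1470 and 1364 CPM in the MFL NK libraries and to 938, 1308 and 1615 CPM in those of LM CD49a- NK cells. The sums were 831, 721 and 539 CPM for LM CD49a+ NK cells and 365, 208 and 306 CPM for MFL ILC1. Both CD49a- populations overlapped, whereas every LM CD49a+ NK library lay below them and every ILC1 library lay lower still. The mean sum of MFL NK cells was 1574 ± 278 CPM (SD, n = 3). That of LM CD49a- NK cells was 1287 ± 339 CPM, that of LM CD49a+ NK cells 697 ± 148 CPM and that of MFL ILC1 293 ± 79.5 CPM. Relative to MFL NK cells this was 81.8%, 44.3% and 18.6% for the other populations in that order. No test was run on the sum. Among the LM CD49a+ NK libraries, replicate 1 had the lowest sum of NK markers (736 CPM) and the highest Ly49 sum (831 CPM).

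The composition of the family differed between the populations as well as its sum. The activating members Klra4 and Klra8 together held 52.5% ± 2.77 (SD, n = 3) of the family's counts in MFL NK cells. Their share was 57.0% ± 3.74 for LM CD49a- NK cells, 38.2% ± 3.00 for LM CD49a+ NK cells and 6.91% ± 3.06 for MFL ILC1. The inhibitory Klra7 (Ly49G) held more in LM CD49a+ NK cells, from 27.8% to 28.7% of the counts against 13.5% to 15.7% for MFL NK cells and 8.65% to 19.8% for LM CD49a- NK cells. In MFL ILC1 the family was mostly Klra9 (Ly49I), with 57.7% ± 6.67, and Klra5 (Ly49E), with 24.4% ± 7.39. The shares add up to the whole, so a lower share of one member raises the others. They are descriptions without a test. The pseudogene Klra13-ps, which is outside these shares, had 23.6% of its 31-base words in common with Klra7. Its mean was 512 CPM in MFL NK, 435 CPM in LM CD49a- NK and 114 CPM in LM CD49a+ NK cells. How reads were split between it and Klra7 was not tested.

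**Figure D2:**
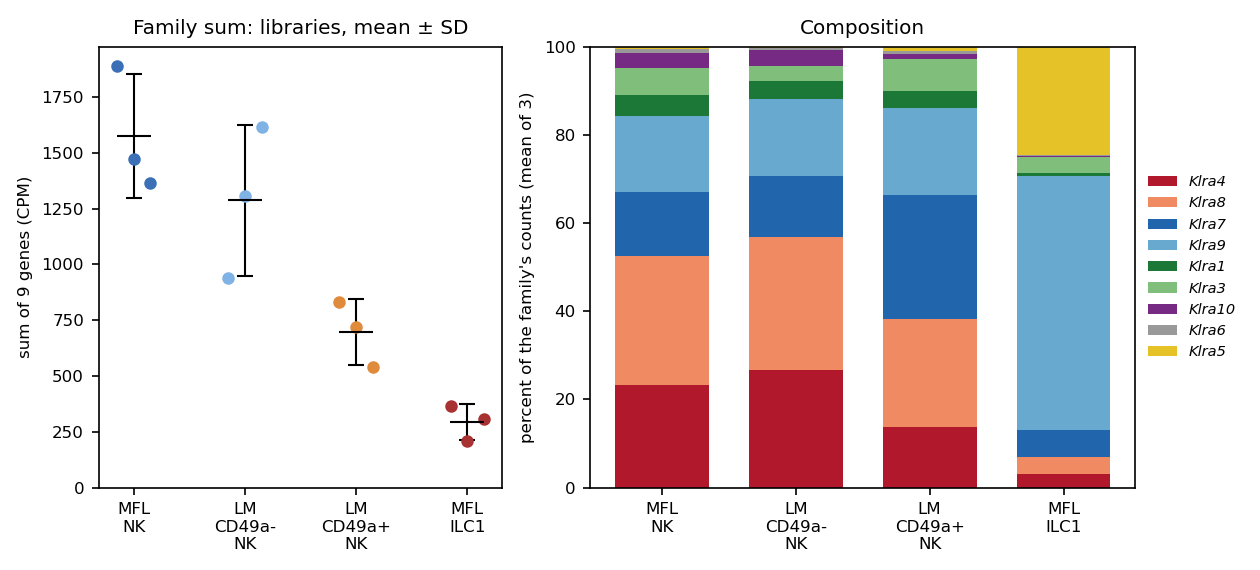
Left, the summed CPM of the 9 Ly49 genes in each library (points) with the mean and SD of the 3 libraries of a group. Right, the mean percentage of the family's counts held by each gene, where Klra4 and Klra8 together hold 52.5% in MFL NK cells, 38.2% in LM CD49a+ NK cells and 6.91% in MFL ILC1, and Klra9 and Klra5 make up most of the ILC1 bar.

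Per kilobase of exon, which allows levels of different genes to be set side by side, the activating pair had the highest mean levels in MFL NK cells but not in LM CD49a+ NK cells. In MFL NK cells the mean levels were 244 CPM per kb for Klra4, 234 for Klra8, 191 for Klra9, 143 for Klra7, 74.6 for Klra3, 42.4 for Klra1, 37.5 for Klra10, 12.3 for Klra6 and 3.50 for Klra5. Klra4 (200 to 294) and Klra8 (212 to 257) overlapped, as did Klra9 (135 to 265) with both. In LM CD49a+ NK cells Klra7 came first, with 122 CPM per kb, before Klra9 (93.8), Klra8 (87.2) and Klra4 (64.7), and its range of 94.7 to 144 overlapped that of Klra9 (82.9 to 108). In MFL ILC1 Klra9 led with 117 CPM per kb, followed by Klra5 with 48.4, and the next was Klra7 with 12.6. The ranges of Klra9 (77.2 to 139) and Klra5 (47.2 to 49.3) did not overlap in ILC1, and Klra7 lay below both.

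**Figure D3:**
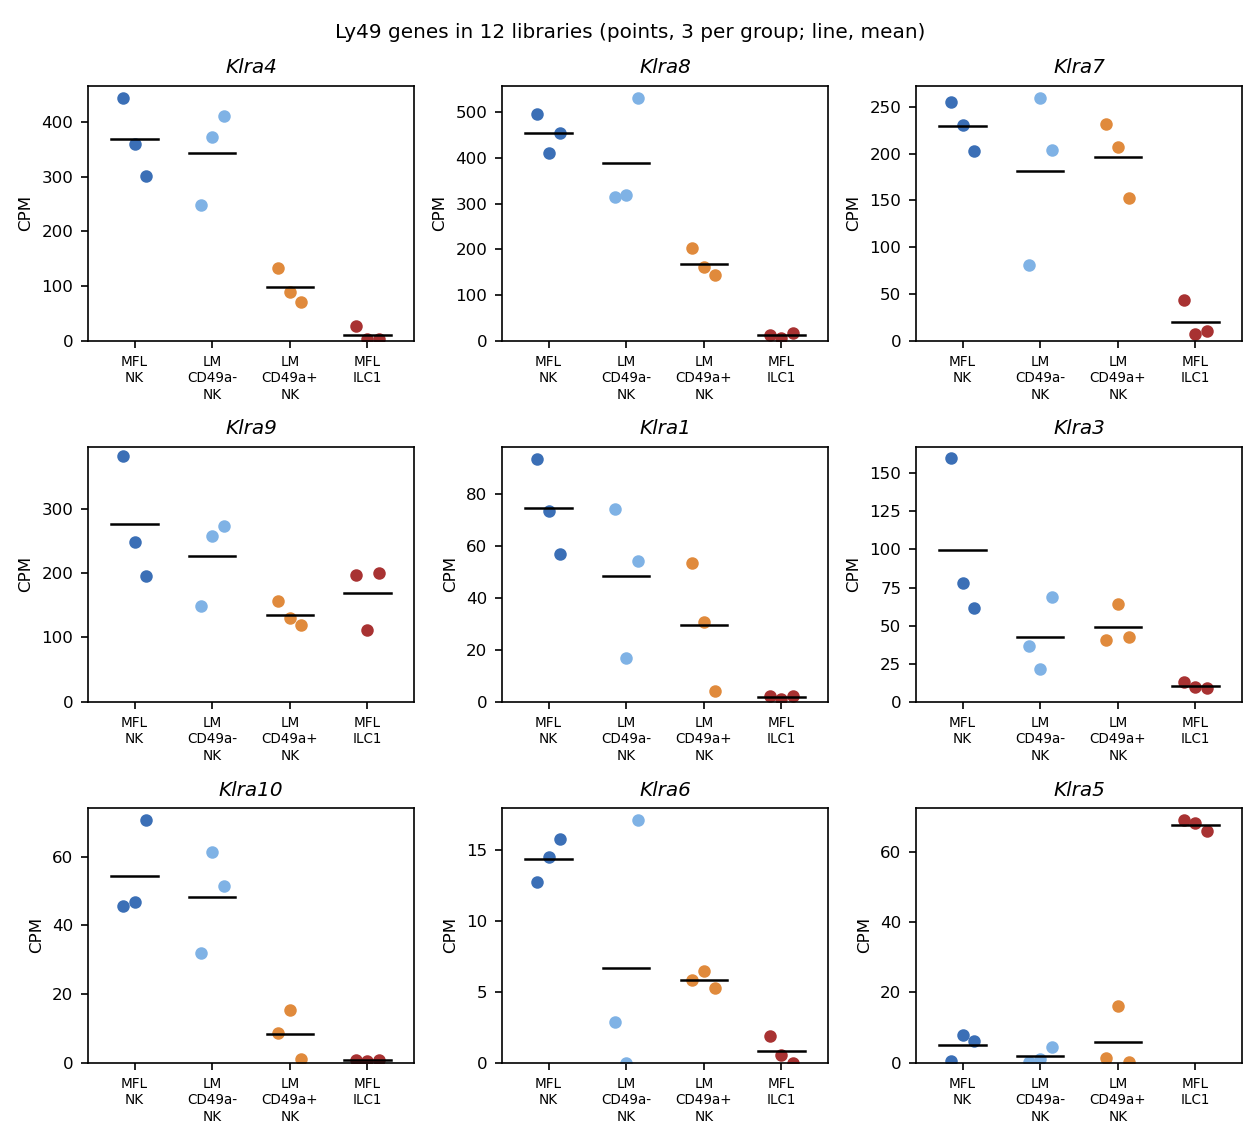
Each panel plots the CPM of 1 Ly49 gene in the 12 libraries (points, 3 per group) with the group mean (line), and the vertical scales differ between panels. Klra4, Klra8 and Klra10 have their lowest NK values in the 3 LM CD49a+ NK libraries, Klra7 does not, and Klra5 alone is highest in MFL ILC1, between 65.9 and 68.9 CPM.

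The first comparison asked how CD49a+ NK cells of metastases differ from the CD49a- NK cells beside them. The activating Klra4 and Klra8 and the inhibitory Klra10 (Ly49J) had lower values in every CD49a+ library, without passing the test, and Klra7 and Klra3 (Ly49C) overlapped. Klra4 measured 132, 89.9 and 70.2 CPM in the CD49a+ cells and 248, 372 and 411 CPM in the CD49a- cells. Klra8 measured 202, 161 and 143 CPM against 314, 318 and 531 CPM. Klra10 measured 8.52, 15.4 and 0.996 CPM against 32.1, 61.5 and 51.4 CPM. For these 3 genes the groups did not overlap, a pattern that 4.10% of all tested genes showed in this direction. The log2 fold changes were −1.82 (SE 0.62) for Klra4, −1.20 (SE 0.29) for Klra8 and −2.54 (SE 0.72) for Klra10, with adjusted p = 0.349, 0.204 and 0.280 by edgeR's quasi-likelihood test.

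None of the 9 members was called between the metastatic populations at an adjusted p under 0.1, where 0.0736% of all tested genes were called lower and 0.0662% higher in CD49a+ cells. This background, 19 genes, became 267 genes when LM CD49a- NK replicate 3 was left out. At an unadjusted p under 0.05 there were 4 members, Klra9 being the fourth (−0.74, SE 0.30), and 11.6% of all genes. DESeq2 called 2 members, Klra8 and Klra10, and 4.08% of all genes, while limma-voom with quality weights called 0 of the 13594 genes (0.00%). Without the filter on low counts edgeR called Klra4, Klra8 and Klra10 and 0.910% of all genes. Its newer quasi-likelihood method, an alternative chosen after seeing the data, called the same 3 and 0.618% of all genes. When MFL ILC1 replicate 1, which is outside this comparison but shares its estimate of spread, was left out, Klra4 was called (adjusted p = 0.0234, within a range of 1.53e-07 to 0.514 over all alternatives). Klra7 measured 231, 207 and 152 CPM in CD49a+ and 81.1, 260 and 204 CPM in CD49a- cells, a log2 fold change of 0.12 (SE 0.50). Over the 9 members the median log2 fold change was −0.72, against 0.01 over all genes.

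Against MFL NK cells the same receptors stood lower in metastatic CD49a+ NK cells, and Klra8 fell. Its MFL NK libraries measured 496, 410 and 453 CPM, which every LM CD49a+ NK library was below. The log2 fold change was −1.43 (SE 0.29, edgeR adjusted p = 0.0323). Hepatocyte transcripts were lower in every LM CD49a+ NK library too (at most 13.1 against at least 17.5 CPM), and their part was not tested. The call was lost without MFL NK replicate 1 (adjusted p = 0.160), MFL NK replicate 3 (adjusted p = 0.127) or LM CD49a+ NK replicate 3 (adjusted p = 0.139), within a range of 4.01e-05 to 0.160 over all alternatives. Of all tested genes, 0.221% were called lower and 0.427% higher.

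Klra4 measured 444, 360 and 301 CPM in MFL NK cells, again above all LM CD49a+ NK libraries, and its log2 fold change of −1.92 (SE 0.62) was larger than that of Klra8 but did not pass the test (edgeR adjusted p = 0.312). The gene passed when MFL ILC1 replicate 1 was left out of the shared fit (adjusted p = 0.00442) and when only these 2 groups were fitted (adjusted p = 0.0289), within a range of 8.38e-09 to 0.671 over all alternatives. It also passed with limma-voom (adjusted p = 0.00135), without the filter on low counts (adjusted p = 8.38e-09) and with edgeR's newer method (adjusted p = 0.00761). It did not in 5 of the 9 alternatives other than leaving out a library, DESeq2 among them. Klra10 measured 45.7, 46.7 and 70.7 CPM in MFL NK cells and had a log2 fold change of −2.71 (SE 0.73, edgeR adjusted p = 0.168). It passed with DESeq2 (adjusted p = 0.0129), without the filter on low counts (adjusted p = 0.0127) and with edgeR's newer method (adjusted p = 0.00688). It also passed without LM CD49a+ NK replicate 2 (adjusted p = 0.0694, within a range of 0.00688 to 0.643 over all alternatives). It did not in 6 of the 9 alternatives other than leaving out a library. Klra9, Klra1 (Ly49A) and Klra6 (Ly49F) were lower in every LM CD49a+ NK library too, with log2 fold changes of −1.02 (SE 0.30), −1.34 (SE 0.70) and −1.29 (SE 1.61). None of these passed in the fit of all 12 libraries, and Klra9 did without the filter on low counts (adjusted p = 0.0213). That made 6 members without overlap, where 13.0% of all tested genes did not overlap in this direction.

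Klra7 overlapped between the groups, with 255, 230 and 203 CPM in MFL NK cells and a log2 fold change of −0.22 (SE 0.50) in LM CD49a+ NK cells. Klra3 overlapped as well, with 160, 78.2 and 61.4 CPM in the MFL NK libraries against 40.5, 64.3 and 42.4 CPM. Klra1 measured 53.5, 30.8 and 4.09 CPM in the LM CD49a+ NK libraries. The median over the 9 members was −1.29, against −0.04 over all genes.

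CD49a- NK cells of metastases were compared with MFL NK cells to ask what differs between sites in cells without CD49a, and no Ly49 gene was called. All 9 had a negative log2 fold change, from −0.10 for Klra4 to −1.36 for Klra5, and all 9 overlapped between the groups. Klra3, at 36.8, 21.4 and 68.5 CPM in LM CD49a- NK cells, was the 1 member with an unadjusted p under 0.05 (−1.24, SE 0.46, edgeR adjusted p = 0.716), where 6.72% of all genes had one. DESeq2 and limma-voom called 0 members as well, and 1.26% and 0.765% of all genes. Of all tested genes, 0.00736% were called lower and 0.0662% higher. The sign of Klra4, Klra7, Klra9 and Klra10 turned in at least 1 alternative, in each case within 0.1 of 0.

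**Figure D4:**
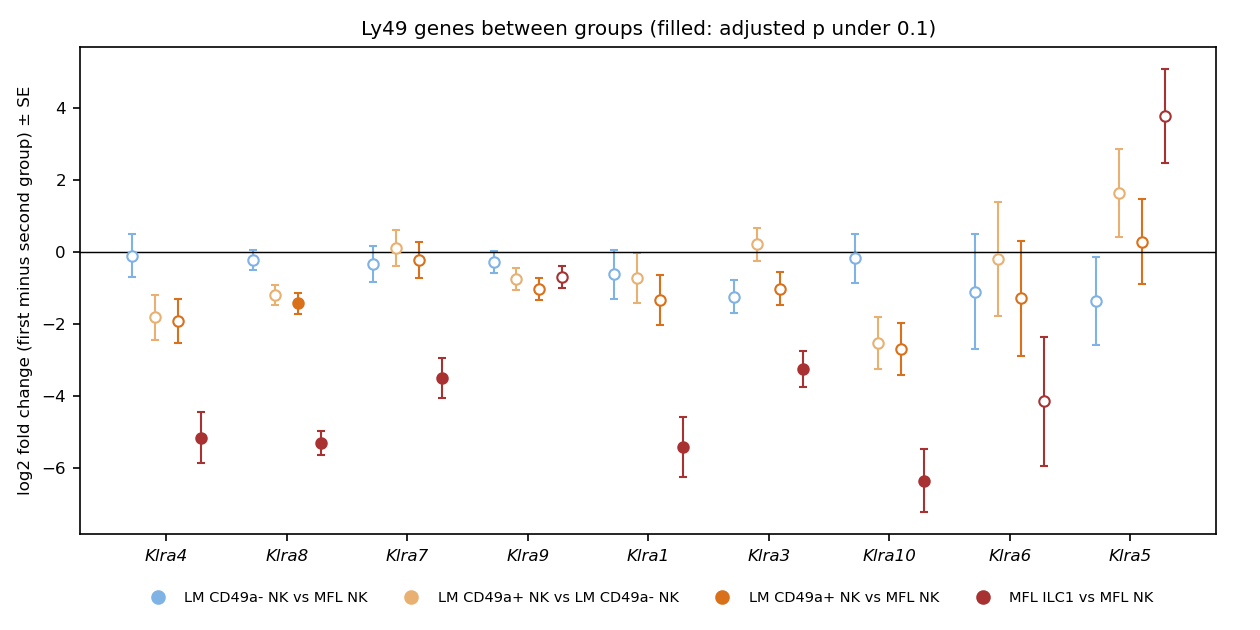
Points give the log2 fold change of each Ly49 gene in 4 comparisons, the first group named minus the second, with its approximate SE (bars). Filled points passed an adjusted p under 0.1, which Klra8 did for LM CD49a+ NK against MFL NK cells and 6 genes did for MFL ILC1 against MFL NK cells, while for ILC1 Klra9 lies at −0.70 and Klra5 at 3.78, both open points.

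The comparison of MFL ILC1 with MFL NK cells, both from metastasis-free liver, gave the largest median difference of the family among the 5 comparisons. Both activating members and the inhibitory Klra1, Klra3, Klra7 and Klra10 fell, 6 of 9, where 1.68% of all tested genes were called lower and 1.38% higher. Klra8 measured 11.5, 6.95 and 15.8 CPM in MFL ILC1 (log2 fold change −5.31, SE 0.34, edgeR adjusted p = 6.28e-08). Klra4 measured 26.2, 2.34 and 2.27 CPM (−5.16, SE 0.72, adjusted p = 0.000287). Klra10 measured 0.679, 0.439 and 0.853 CPM (−6.36, SE 0.88, adjusted p = 0.000268). These are levels of between 6 and 309 counts in libraries of at least 10078965 counts. The higher Klra4 value, 26.2 CPM, was that of MFL ILC1 replicate 1, and that library also had the highest NK marker sum of the 3 (140 CPM against 99.0 and 80.4). Klra1, Klra3, Klra6 and Klra7 were also highest in that library, whereas Klra8 and Klra10 were highest in MFL ILC1 replicate 3. A cause of the Klra4 value was not tested.

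Klra1 (2.29, 0.878 and 2.08 CPM), Klra3 (13.0, 9.66 and 8.91 CPM) and Klra7 (43.5, 7.32 and 10.04 CPM) fell by 5.41, 3.24 and 3.50 on the log2 scale, with edgeR adjusted p = 0.000819, 0.000775 and 0.000975. All 6 kept their calls whichever library was left out, though without MFL ILC1 replicate 1 the log2 fold change was −7.31 for Klra4 and −4.73 for Klra7. Klra6 measured 1.87, 0.512 and 0 CPM in MFL ILC1 and 12.7, 14.5 and 15.8 CPM in MFL NK cells, a log2 fold change of −4.16 (SE 1.80) that did not pass (edgeR adjusted p = 0.481). It passed with DESeq2 (adjusted p = 0.0851), limma-voom (adjusted p = 7.25e-05) and edgeR's newer method (adjusted p = 0.0352). It also passed when only these populations were fitted (adjusted p = 0.0508), within a range of 7.25e-05 to 0.942 over all alternatives. With Klra6, 7 members had no overlap and were lower in ILC1, against 13.1% of all tested genes. The median log2 fold change over the 9 members was −4.16, against 0.01 over all genes.

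Klra9 and Klra5 departed from the rest. Klra9 measured 197, 111 and 200 CPM in MFL ILC1 and 382, 248 and 196 CPM in MFL NK cells, so the groups overlapped (log2 fold change −0.70, SE 0.30, edgeR adjusted p = 0.479). Limma-voom with quality weights called it lower (adjusted p = 0.0109, within a range of 0.0109 to 1 over all alternatives). Limma-voom called 2645 of the 13594 tested genes in this comparison. Klra10, the member whose transcripts share most with Klra9, had 6 to 9 counts in these ILC1 libraries, where Klra9 had 1523 to 2323.

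Klra5 was the 1 member with higher values in ILC1, at 68.9, 68.1 and 65.9 CPM against 0.490, 7.96 and 6.24 CPM in MFL NK cells. No library overlapped, as for 12.2% of all tested genes in this direction. Its log2 fold change was 3.78 (SE 1.31) with an edgeR adjusted p of 0.217 in the fit of all 12 libraries. The call differed between fits. It passed when only these 2 populations were fitted (adjusted p = 0.0101), without the filter on low counts, with limma-voom, with a replicate block (4.75, adjusted p = 0.0713) and with edgeR's newer method, within a range of 4.00e-06 to 0.660 over all alternatives. The receptor it encodes, Ly49E, is known from fetal NK cells and from liver ILC1.

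Sequences before a transcript start of 3 members are shown because the members differed in ILC1: Klra8 fell, Klra9 was not called and Klra5 had its highest values there. They are the 250 bases before the RefSeq transcript start, placed on GRCm39 by an exact match, all on the minus strand and written 5′ to 3′. The positions are chr6:130106862-130107111 for Klra8, chr6:130170076-130170325 for Klra9 and chr6:129890188-129890437 for Klra5. GENCODE annotates other starts further upstream, so the stretches of Klra5 and Klra9 lie within their annotated genes and that of Klra8 overlaps its gene, and the table holds another start for Klra8. Capitals mark the longest run common to the 3.
Klra8: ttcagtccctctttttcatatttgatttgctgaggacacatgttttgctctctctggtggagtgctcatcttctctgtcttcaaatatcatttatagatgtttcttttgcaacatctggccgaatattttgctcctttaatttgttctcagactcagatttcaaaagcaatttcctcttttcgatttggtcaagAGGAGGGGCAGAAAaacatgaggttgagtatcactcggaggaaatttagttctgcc
Klra9: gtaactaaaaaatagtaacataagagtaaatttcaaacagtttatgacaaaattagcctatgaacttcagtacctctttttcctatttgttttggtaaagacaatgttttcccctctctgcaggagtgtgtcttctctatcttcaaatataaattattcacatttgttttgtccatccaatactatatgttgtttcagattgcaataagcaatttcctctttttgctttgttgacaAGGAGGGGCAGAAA
Klra5: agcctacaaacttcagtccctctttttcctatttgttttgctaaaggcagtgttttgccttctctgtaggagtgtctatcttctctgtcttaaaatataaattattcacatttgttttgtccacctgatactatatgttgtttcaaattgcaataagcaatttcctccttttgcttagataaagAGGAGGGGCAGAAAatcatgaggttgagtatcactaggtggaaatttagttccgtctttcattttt
The run AGGAGGGGCAGAAA, 14 bases, began 56 bases before the start of Klra8, 14 before that of Klra9 and 66 before that of Klra5. On either strand it occurred in windows of 6 of the 9 members (300 bases, of which 250 lie before the start), namely Klra3, Klra4, Klra5, Klra6, Klra8 and Klra9, and in 0.0274% of the 32851 windows of the table. So it was common to members that fell in ILC1 and members that did not. The window of Klra10 lies within its annotated gene and holds the start of its coding sequence. The bases before its upstream GENCODE start were therefore not searched. Core motifs of factors known in NK cells were looked for in the same windows on both strands. TGTGGT (RUNX) and TCACAC (T-box) occurred in that of Klra1, and CTTTGT (TCF) in those of Klra9 and Klra7, where 16.8%, 14.5% and 18.7% of all windows held them.

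LM CD49a+ NK cells share the surface pattern CD49a+ with ILC1, and the comparison of these populations asked how far apart their Ly49 genes are. Klra1, Klra3, Klra4, Klra7, Klra8 and Klra10 were higher in LM CD49a+ NK cells, 6 of 9, where 2.29% of all tested genes were called higher and 1.29% lower. The same MFL ILC1 libraries serve this comparison and the one before. Klra8 differed most surely (log2 fold change 3.89, SE 0.32, edgeR adjusted p = 1.64e-06), followed by Klra7 (3.28, SE 0.55, adjusted p = 0.00218). Klra1 (4.07, SE 0.79), Klra3 (2.22, SE 0.48), Klra4 (3.24, SE 0.66) and Klra10 (3.65, SE 0.79) had adjusted p from 0.00786 to 0.0165. When only these groups were fitted, Klra4 (adjusted p = 0.110) and Klra10 (adjusted p = 0.307) lost their calls. Klra10 also lost its call with limma-voom (adjusted p = 0.152). Without MFL ILC1 replicate 1 the log2 fold change was 5.39 for Klra4 and 4.50 for Klra7. That of Klra1 was 3.34 without LM CD49a+ NK replicate 1, and that of Klra10 2.85 without LM CD49a+ NK replicate 2. Including Klra6 (2.87, SE 1.71, adjusted p = 0.516), 7 members did not overlap and were higher in LM CD49a+ NK cells, as 9.33% of all tested genes were. Limma-voom called Klra6 (adjusted p = 0.0514), and it called 935 of the 13594 tested genes in this comparison. The median over the 9 members was 3.24, against −0.07 over all genes.

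Klra5 and Klra9 were again apart. Klra5 measured 1.45, 16.1 and 0.299 CPM in LM CD49a+ NK cells, below every ILC1 library (log2 fold change −3.50, SE 1.29, edgeR adjusted p = 0.215), and 13.9% of all tested genes did not overlap in this direction. Without LM CD49a+ NK replicate 2, the library with 16.1 CPM, the log2 fold change was −6.25 and the gene was called (adjusted p = 0.0389, within a range of 0.00129 to 0.445 over all alternatives). Klra5 was also called without the filter on low counts (adjusted p = 0.00314) and with limma-voom (adjusted p = 0.0792). A replicate block (adjusted p = 0.0961) and edgeR's newer method (adjusted p = 0.00129) called it too. It was not called in 5 of the 9 alternatives other than leaving out a library. Klra9 measured 156, 130 and 120 CPM in LM CD49a+ NK cells, inside the ILC1 range (−0.32, SE 0.30, adjusted p = 0.773).

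The difference of LM CD49a+ from LM CD49a- NK cells was set against that of MFL ILC1 from MFL NK cells by an interaction, the first minus the second. The CD49a+ cells are CD49b+ NK cells in metastases and CD49b- ILC1 in metastasis-free liver, so the cell type and the site cannot be told apart in it. Klra8 (log2 4.11, SE 0.42, edgeR adjusted p = 7.91e-05), Klra3 (3.46, SE 0.67, adjusted p = 0.0198), Klra7 (3.62, SE 0.73, adjusted p = 0.0279) and Klra1 (4.69, SE 1.03, adjusted p = 0.0443) were called, 4 of 9 against 1.03% of all tested genes. In metastasis-free liver the difference of ILC1 from NK cells was −5.31, −3.24, −3.50 and −5.41 for these genes in the same order, and in metastases that of CD49a+ from CD49a- NK cells was −1.20, 0.22, 0.12 and −0.72. Leaving out MFL NK replicate 1 ended the calls of Klra1 (adjusted p = 0.131) and Klra3 (adjusted p = 0.114). The call of Klra1 also ended without LM CD49a+ NK replicate 1 (adjusted p = 0.117) or MFL ILC1 replicate 2 (adjusted p = 0.116), within a range of 2.77e-06 to 0.131 over all alternatives, and that of Klra3 ranged from 9.72e-05 to 0.114. Klra4 (3.34, SE 0.88, adjusted p = 0.121) and Klra10 (3.82, SE 1.03, adjusted p = 0.140) stayed short of the threshold. Klra4 passed without MFL ILC1 replicate 1 (5.49, adjusted p = 1.49e-05, within a range of 1.81e-13 to 0.280), and Klra10 without LM CD49a+ NK replicate 3 (4.35, adjusted p = 0.0121, within a range of 0.0121 to 0.417). Of the 8 alternatives other than leaving out a library, Klra4 passed in 4, limma-voom (adjusted p = 0.00100) among them. Klra10 passed in 2 of the 8, DESeq2 (adjusted p = 0.0173) among them. Klra9 had an interaction of −0.04 (SE 0.43).

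The table also held 5 Klra genes that are no members. Klra13-ps, a pseudogene at chr6:130268124-130283391 with 3.85% of its 31-base words to itself, was listed at 339, 501 and 696 CPM in MFL NK cells and at 35.8, 13.2 and 10.1 CPM in MFL ILC1. Its values were 463, 183 and 658 CPM for LM CD49a- NK cells and 71.6, 170 and 99.9 CPM for LM CD49a+ NK cells. Between LM CD49a+ and MFL NK cells it was called lower in the former (log2 fold change −2.17, SE 0.49, edgeR adjusted p = 0.0662), a call that ended without any MFL NK library or without LM CD49a+ NK replicate 1 or 3 (adjusted p up to 0.324). Its counts can hardly be told apart from those of the genes it resembles, of which Klra7 shared most with it. Klra14-ps, with no word of its own, was listed at up to 122 CPM. With all Klra symbols summed, the family came to 2198 CPM for MFL NK cells, 1804 CPM for LM CD49a- NK cells, 865 CPM for LM CD49a+ NK cells and 320 CPM for MFL ILC1, in the same order as before. Klra2 and Klra17 had means under 1 CPM in all 4 populations.

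Genes that act with the Ly49 receptors were taken from lists. Of 9 genes of receptor signaling, edgeR called 0 between the metastatic populations, where 2 had an unadjusted p under 0.05, DESeq2 called 1 (Syk) and limma-voom 0. Tyrobp, which carries the signal of Klra4 and Klra8, and Ptpn6, which carries that of the inhibitory members, were called in none of the 5 comparisons by edgeR, DESeq2 or limma-voom. The kinase gene Syk fell in MFL ILC1 (187 against 449 CPM in MFL NK cells, log2 fold change −1.26, SE 0.26, adjusted p = 0.00962). The kinase gene Zap70 was lower and the lipid phosphatase gene Inpp5d (SHIP1) higher in LM CD49a+ NK cells than in ILC1 (−1.30 and 0.70, adjusted p = 0.0199 and 0.0814). The call of Zap70 ended without LM CD49a+ NK replicate 3 (adjusted p = 0.108), and that of Inpp5d held without LM CD49a+ NK replicate 2 or any LM CD49a- NK library but ended without any of the other 8 (adjusted p up to 0.379). The 3 genes of the class I ligands, H2-K1, H2-D1 and B2m, were called in none of the comparisons by edgeR or DESeq2, whereas limma-voom called H2-K1 and B2m between MFL ILC1 and MFL NK cells, and B2m between LM CD49a+ NK and MFL NK cells. Limma-voom called 2645 and 307 of the 13594 tested genes in these comparisons, in that order. In the latter comparison, 1 of the 3 had an unadjusted edgeR p under 0.05.

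Of 10 transcription factor genes, Zeb2, a regulator of late NK maturation, was called in 4 of the 5 comparisons. Its mean was 673 CPM for MFL NK cells, 435 CPM for LM CD49a- NK cells, 132 CPM for LM CD49a+ NK cells and 25.8 CPM for MFL ILC1. Between the metastatic populations it was called lower in CD49a+ cells (log2 fold change −1.72, SE 0.30, edgeR adjusted p = 0.0402), the 1 call of the list there, which ended without LM CD49a+ NK replicate 1 or replicate 2 (adjusted p up to 0.168). Limma-voom called 0 of all genes in that comparison. In ILC1 against MFL NK cells 3 of the 10 fell, Zeb2, Eomes (−5.04, SE 0.49) and Prdm1 (−2.01, SE 0.39). Eomes, which defines NK cells against ILC1, was at 687 CPM in LM CD49a+ NK cells and 668 CPM in MFL NK cells.

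Other lectin-like receptor genes of NK cells moved in both directions. Of 13 such genes, 2 fell in MFL ILC1, Klrg1 (−3.84, SE 0.72, edgeR adjusted p = 0.00468) and Klri2 (−1.40, SE 0.23, adjusted p = 0.00123), and 2 rose, Klrb1b (1.32, SE 0.27, adjusted p = 0.00824) and Klrc1 (1.21, SE 0.24, adjusted p = 0.00572). Klrc1 encodes the inhibitory receptor NKG2A. The median over the 13 was −0.10, against −4.16 for the Ly49 members. Klrb1b was also higher in LM CD49a+ NK cells than in MFL NK cells (1.14, SE 0.27, adjusted p = 0.0813), a call that, like that of Inpp5d, ended without any 1 library of MFL NK cells or MFL ILC1 or LM CD49a+ NK replicate 1 or 3 (adjusted p up to 0.416).

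Over the 12 libraries and 9748 genes compared, the genes whose log2 CPM followed the log2 Ly49 sum most closely were Plek (Pearson r = 0.966), Prf1 (0.954), Cma1 (0.951), Itga4 (0.950) and Macir (0.941). Prf1 encodes perforin, with a mean of 1246 CPM for MFL NK cells, 1143 CPM for LM CD49a- NK cells, 623 CPM for LM CD49a+ NK cells and 220 CPM for MFL ILC1. Plek encodes pleckstrin and Itga4 the integrin chain CD49d. These correlations describe libraries that fall into 4 populations and have no p.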

How the data were processed

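Levels of 9 Ly49 genes were analyzed in 12 bulk RNA-seq libraries of sorted liver lymphocytes. The authors trimmed the reads and quantified them with Salmon (v1.5.0) on a decoy-aware index of 31-base words over the GENCODE M27 annotation of GRCm39, then summed transcripts with tximport. They deposited unnormalized estimated counts, which were already whole numbers. A second table of 6 macrophage libraries was deposited as counts. The submitters' processing notes name Salmon v1.10.0 for those libraries, and the filter that left out low genes is not given in the sources used here.

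Genes were named by Ensembl identifier from GENCODE vM39, which held 53700 of 54309 identifiers. Genes without a symbol took at most 0.126% of a library's counts. Genes were kept with filterByExpr, scaled by TMM and compared with edgeR v4.0.16 (R v4.3.3), by its quasi-likelihood test, with all 12 libraries fitted together. Benjamini-Hochberg adjustment ran over the 13594 genes tested, and genes were called under an adjusted p of 0.1. SEs are the size of the log2 fold change divided by the square root of F and are approximate. An exact two-sided permutation test of 3 against 3 cannot go below p = 0.1. CPM per kb used the union of annotated exons. Alternatives used DESeq2 v1.42.0 and limma v3.58.1. Sequences were handled with Python v3.11.15 and Biopython.

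Named genes are the 9 members, called genes of fixed lists (at most 4 per list) and the 5 genes closest to the Ly49 sum. The members and lists were chosen with earlier results of these data known. Replicate numbers were not taken as pairs, since correlations of deviations between libraries of the same number ranged from −0.0452 to 0.0981. The samples may still be grouped by sorting, and a fit with a replicate block was run as an alternative. On simulated counts over the tested genes, with 200 genes changed, the fit was checked for sign and recovery. Promoter windows come from a RefSeq table of build GRCm38.p6.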

Additional observations from a re-analysis of the deposited data

Results flagged for a closer look

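Among the Ly49 genes, 4 were flagged because the difference between CD49a+ and CD49a- cells differed between metastases and metastasis-free liver by the interaction in edgeR, with log2 values of 4.69 for Klra1, 3.46 for Klra3, 3.62 for Klra7 and 4.11 for Klra8. The CD49a+ cells are CD49b+ NK cells at one site and CD49b- ILC1 at the other, so cell type and site cannot be told apart here. Klra1 and Klra3 lost this call when MFL NK replicate 1 was left out (adjusted p = 0.131 and 0.114). Groups of 3 libraries were too small for a check of single libraries that stand apart.

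A signal outside the comparisons came from the table of F4/80high and F4/80low metastasis-associated macrophages. It held 1 of the 9 members, Klra4, with counts of 42, 139 and 42 in F4/80high and 36, 29 and 4 in F4/80low libraries. Klra17 had at least 90 counts in each F4/80high and at least 147 in each F4/80low library. Klra2 had at least 2686 and at least 4245 counts, respectively. In CPM of that table this was 114 to 126 in F4/80high and 137 to 171 in F4/80low libraries. Its mean in the lymphocytes was at most 0.634 CPM. The lowest total of a gene listed in that table was 37 counts over the 6 libraries, and levels of the other members in macrophages were not analysed here.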

How the results depend on the processing

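Between the metastatic populations the number of Ly49 members called, 0 in the report, was 3 without the low-count filter, 2 with DESeq2, 3 with edgeR's newer quasi-likelihood method, which was chosen after seeing the data, and 0 to 1 when libraries were left out in turn. The first 3 of these fits called 200 of 21988, 543 of 13293 and 84 of 13594 genes there, in that order. Between LM CD49a+ NK and MFL NK cells the 1 call became 4 without the filter, 2 with DESeq2, 2 with limma-voom, 2 when only the groups compared were fitted, 3 with the newer method and 0 to 2 when libraries were left out. Of all genes, the main fit called 58 higher and 30 lower there. The first 5 of the other fits called 371 of 21988, 365 of 12768, 307 of 13594, 94 of 12203 and 222 of 13594 genes, in that order. The 4 interaction calls ranged from 2 to 5 when libraries were left out. For the interaction the main fit called 140 of 13594 genes. The fit without MFL NK replicate 1, which called 2 members, called 76 of 14435 genes. Without LM CD49a- NK replicate 2 it was 190 of 14536 genes, and more were called without LM CD49a- NK replicate 3. Over all genes, the calls with 1 library left out ranged from 5 to 267 between the metastatic populations, 26 to 168 between LM CD49a+ NK and MFL NK cells and 1 to 110 for LM CD49a- NK against MFL NK cells. With all Klra symbols summed, also chosen after seeing the data, the family came to 2198, 1804 and 865 CPM in MFL NK, LM CD49a- NK and LM CD49a+ NK cells.

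Of 477 single-gene values under alternatives other than leaving out a library, 432 kept their direction and side of the threshold, 37 passed only there, 3 no longer passed and 5 turned: Klra6 between the metastatic populations (0.81 with limma-voom, 0.27 with a replicate block), Klra5 between LM CD49a+ NK and MFL NK cells (−1.07 with limma-voom) and Klra4 for LM CD49a- NK against MFL NK cells (0.029 with limma-voom, 0.055 with a replicate block). With libraries left out, 614 of 648 kept both and 21 turned. Between the metastatic populations these gave ranges of −0.10 to 0.75 for Klra3, −1.11 to 3.29 for Klra5, −0.77 to 2.00 for Klra6 and −0.24 to 0.47 for Klra7. Klra5 between LM CD49a+ NK and MFL NK cells ranged from −2.47 to 0.84. For LM CD49a- NK against MFL NK cells, Klra4 ranged from −0.26 to 0.087, Klra7 from −0.69 to 0.010, Klra9 from −0.48 to 0.026 and Klra10 from −0.38 to 0.062. The interaction of Klra9 ranged from −0.35 to 0.15. The causes of these changes were not tested.

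Replicate numbers were not taken as pairs. Of the 12 libraries, 8 correlated best with a library of their own number. The paper describes independent sortings of pooled samples, and the sources used here do not tie them to replicate numbers. With a replicate block the number of members called was 0 between the metastatic populations, 1 between LM CD49a+ NK and MFL NK cells, 0 for LM CD49a- NK against MFL NK cells, 7 each for MFL ILC1 against MFL NK cells and LM CD49a+ NK cells against MFL ILC1 (6 each without the block, the added gene being Klra5) and 5 for the interaction (Klra4 added). Over all 13594 genes tested, the calls with the block were 24, 101, 15, 445, 484 and 127, in the same order. Depth limits Klra5 and Klra6 in NK cells, with as few as 1 and 0 counts, and Klra10 in ILC1, with 6 to 9.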
